A study of Mus musculus with 6 samples.

Results

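Heat shock chaperones are proteins that fold, refold or hold other proteins, and they were examined here in liver tumours that arose with or without a transgene. The set was chosen by name and holds 10 genes: Hspa1b, Hspa8, Hsph1, Dnajb1, Hsp90aa1, Hsp90ab1, Hspb1, Hspd1, Hspe1 and Bag3. Every probe set (a group of short array probes read as 1 value) annotated to 1 of these symbols and to no other gene was taken. That gave 20 probe sets for 9 of the 10 genes, out of 20380 probe sets for 12393 genes, and Hsp90ab1 was not analysed here.

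The series holds 6 Affymetrix expression arrays, 1 for the liver tumour RNA of each of 6 male mice. The groups were 3 tumours from Alb/AEG-1 transgenic mice, which carry a transgene named after albumin (Alb), a gene of hepatocytes, and astrocyte elevated gene-1 (AEG-1), which in mouse is encoded by Mtdh, and 3 tumours from WT mice. Both groups had received N-nitrosodiethylamine (DEN), a liver carcinogen, as 1 intraperitoneal dose of 10 µg per g body weight when 14 days old, and tumours were taken at 28 weeks. CD-1 is the background strain recorded for both groups, although the injected embryos came from B6CBAF1/J parents, and the labels describe neither the promoter and species of the transgene nor the number of founder lines. All values are log2 expression levels, so a difference of 1 is 2-fold, and differences are Alb/AEG-1 minus WT. The small number of arrays, 3 in each group, limits how precisely any difference is known. The labels number the animals but do not describe how tumours were chosen. The p-values set a difference against the spread within the groups of these 6 samples, and may not hold for other tumours.

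Cells under heat, oxidative or proteotoxic stress raise a shared set of chaperones. The transcription factor HSF1, held inactive by chaperones in unstressed cells, then forms trimers and binds heat shock elements, which are inverted repeats of the unit GAA and its complement. HSP70 proteins bind exposed stretches of unfolded chains in an ATP cycle that J-domain proteins start and nucleotide exchange factors end. HSP90 acts later, on near-native clients such as kinases and steroid receptors, and the HSP60 and HSP10 chaperonin folds proteins inside mitochondria. In liver, inducible HSP70 is low at rest and is induced by heat, toxicants and ischaemia.

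The promoters of the members were read for exact matches to this element. RefSeq (GRCm38.p6) windows of 250 bases before the annotated start were found for 7 members: Hspa1b, Hsph1, Dnajb1, Hspb1, Hspd1, Hspe1 and Bag3. They were searched for GAANNTTC and TTCNNGAA, which read the same on both strands, and for 3 units in a row. Overlapping matches were each counted. The 4 windows below cover the members with a match, Hspd1 through the window it shares with Hspe1, each printed 5′ to 3′ on the strand of its gene, with matches in capitals. They lie at chr17:34959239-34959488 (minus strand) for Hspa1b, chr5:149636337-149636586 (minus strand) for Hsph1, chr5:135887669-135887918 (plus strand) for Hspb1 and chr1:55087898-55088147 (plus strand) for Hspe1, which overlaps a window of Hspd1 on the opposite strand.
Hspa1b: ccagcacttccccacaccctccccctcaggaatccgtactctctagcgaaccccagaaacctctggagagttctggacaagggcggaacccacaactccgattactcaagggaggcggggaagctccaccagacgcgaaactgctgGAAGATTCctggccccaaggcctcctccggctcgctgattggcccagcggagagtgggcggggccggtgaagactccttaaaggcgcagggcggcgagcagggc
Hsph1: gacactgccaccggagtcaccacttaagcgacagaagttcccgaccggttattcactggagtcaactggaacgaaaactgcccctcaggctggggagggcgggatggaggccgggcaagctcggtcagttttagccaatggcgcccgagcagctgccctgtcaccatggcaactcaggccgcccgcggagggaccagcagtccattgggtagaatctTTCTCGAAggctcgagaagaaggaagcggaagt
Hspb1: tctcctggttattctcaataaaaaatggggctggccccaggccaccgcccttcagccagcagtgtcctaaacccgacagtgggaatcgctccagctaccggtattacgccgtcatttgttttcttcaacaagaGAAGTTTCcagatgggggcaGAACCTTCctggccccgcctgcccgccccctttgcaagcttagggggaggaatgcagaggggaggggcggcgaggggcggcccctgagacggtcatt
Hspe1: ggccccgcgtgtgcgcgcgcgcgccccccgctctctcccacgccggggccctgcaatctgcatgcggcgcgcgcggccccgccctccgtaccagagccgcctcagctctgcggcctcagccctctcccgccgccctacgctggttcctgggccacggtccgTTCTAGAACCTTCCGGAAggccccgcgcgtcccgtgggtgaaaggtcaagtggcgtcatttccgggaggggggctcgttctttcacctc
Hspa1b had 1 match, beginning 104 bases before the start, and Hsph1 had 1, beginning at 33 bases from the start shown and 54 bases from its other annotated start. Hspb1 had 2, the nearer beginning at 97 bases. The shared window of Hspe1 and Hspd1 had 3 overlapping matches, which together held 2 overlapping runs of 3 units. A second Hspd1 window, at another annotated start, both windows of Dnajb1 and that of Bag3 held no match. The second Dnajb1 window lies downstream of the start that follows the first window, so it is inside the gene as annotated from that start. Among 32841 mouse windows of this length, 12.8% held a match, 1.46% held 2 or more and 0.466% held 3 units in a row. A match is a description of letters and was not tested as a binding site. Only exact matches within 250 bases were counted, so a promoter without one may still hold an imperfect or more distant element. The window of Hspa1a, the neighbouring copy of Hspa1b, differed from that of Hspa1b at 3 of 250 bases and held the same match.

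No member passed the test for a difference between Alb/AEG-1 and WT tumours. All 20 probe sets were brighter than the median of all probe sets (5.83) in their mean over the arrays, the lowest of which was 7.19. They had adjusted p-values between 0.637 and 0.974 in limma with Benjamini-Hochberg adjustment over 22626 probe sets. The background share called in that test was 0.00442% (1 probe set). At an unadjusted p under 0.05 the count of members was also 0, against 3.68% of all probe sets with a higher level and 4.38% with a lower level in Alb/AEG-1 tumours. In 0 of 20 member probe sets did the groups separate, whereas 6.28% of all probe sets had every Alb/AEG-1 value above every WT value and 8.38% had every one below. The difference was negative in 15 member probe sets and positive in 5, with a median of -0.16. With the brightest probe set per gene, 6 genes were negative and 3 positive with a median of -0.07, beside -0.01 over all genes. In bulk tumour RNA, fewer cells of a type and less RNA per cell cannot be told apart.

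**Figure D1:**
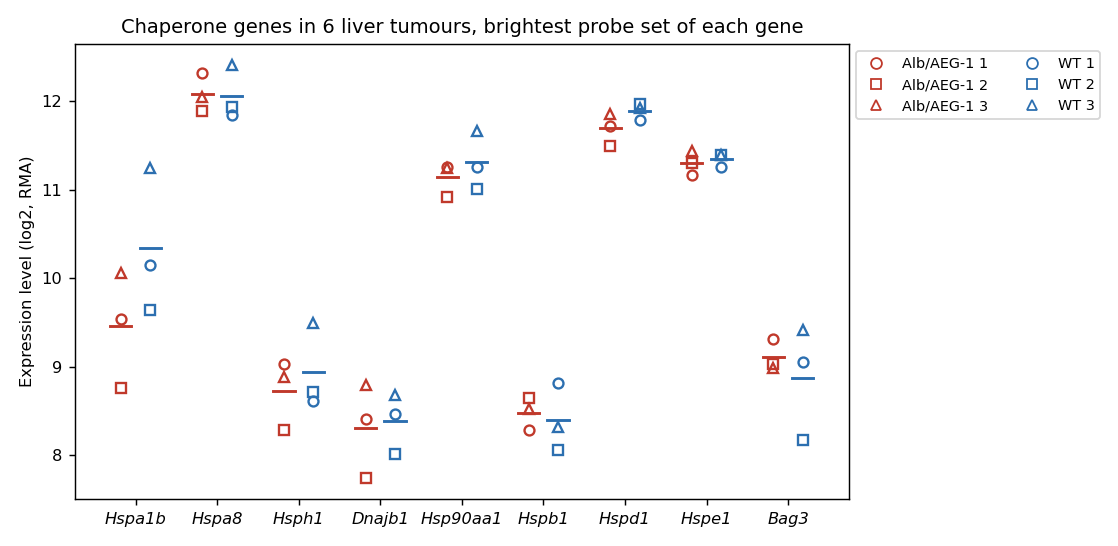
Log2 expression level (vertical axis) of the brightest probe set of each of 9 chaperone genes, with Alb/AEG-1 tumours in red on the left and WT tumours in blue on the right of each gene. Symbols mark replicates 1 to 3 and lines mark group means. The groups overlap for every gene, and heights of different genes cannot be compared because each probe set binds with its own strength.

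Hspa1b, the stress-inducible cytosolic HSP70, had the largest difference among the members. Its brightest probe set (1452318_a_at) was at 9.54, 8.76 and 10.06 in Alb/AEG-1 tumours, against 10.15, 9.64 and 11.24 in WT tumours. Alb/AEG-1 replicate 3 lay above WT replicate 2 and just below WT replicate 1, so the groups overlapped. The means were 9.46 ± 0.65 in Alb/AEG-1 tumours and 10.34 ± 0.82 in WT tumours (SD, n = 3 each). The difference was -0.89 ± 0.45 (SE), a ratio of 0.541 with a 95% interval of 0.262 to 1.12 (limma, unadjusted p = 0.0853, adjusted p = 0.637). The interval holds both no difference and a level in Alb/AEG-1 tumours as low as 0.262 of that in WT tumours. The other 2 probe sets (1427126_at and 1427127_x_at) gave -0.75 and -0.86, and their groups overlapped as well. Without WT replicate 3 the difference of 1452318_a_at was -0.44, and leaving out Alb/AEG-1 replicate 2 gave -0.54. Without WT replicate 2 it was -1.24 (limma, unadjusted p = 0.0287, adjusted p = 0.869), and leaving out Alb/AEG-1 replicate 3 gave -1.19 (unadjusted p = 0.0411, adjusted p = 0.579).

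Hspa1a encodes a nearly identical HSP70, and probes for either gene may read both transcripts. Its single probe set was at 5.45, 4.63 and 5.69 in Alb/AEG-1 tumours, against 5.79, 5.35 and 6.76 in WT tumours. All of these but WT replicate 3 lay under the median of all probe sets (5.83). It had the same lowest array (Alb/AEG-1 replicate 2) and the same highest array (WT replicate 3) as Hspa1b. The difference was -0.71 ± 0.39 (SE, limma adjusted p = 0.647).

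Hspa8, the constitutive HSP70 that is abundant in unstressed cells, was covered by 4 probe sets. The brightest (1455789_x_at) was at 12.32, 11.89 and 12.05 in Alb/AEG-1 tumours, against 11.84, 11.93 and 12.41 in WT tumours. The group means lay within 0.02 of each other, with a 95% interval of -0.38 to 0.43. A second, 1420623_x_at, was at 11.95, 11.54 and 12.21 in Alb/AEG-1 tumours, against 11.83, 11.92 and 12.54 in WT tumours. It differed by -0.20 ± 0.23 (SE), and 1420622_a_at by -0.16 ± 0.26. The suffix x_at marks probes that may bind related transcripts. The dimmest, 1431182_at, was at 7.21, 5.64 and 8.23 in Alb/AEG-1 tumours, against 7.22, 7.41 and 7.44 in WT tumours. Its Alb/AEG-1 values spanned the whole range of the 6 arrays while its WT values were close together, and the difference was -0.33 ± 0.55 (SE).

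The partners of HSP70 gave no separation either. Hsph1 encodes HSP105, a nucleotide exchange factor and holdase for HSP70. Its brightest probe set (1425993_a_at) was at 9.03, 8.29 and 8.88 in Alb/AEG-1 tumours, against 8.61, 8.71 and 9.49 in WT tumours, a difference of -0.20 ± 0.27 (SE). The second (1423566_a_at) differed by -0.11 ± 0.37. Both had their lowest value in Alb/AEG-1 replicate 2 and their highest in WT replicate 3.

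Dnajb1, the HSP40 that brings substrates to HSP70 and stimulates its ATPase, was at 8.41, 7.74 and 8.79 in Alb/AEG-1 tumours, against 8.47, 8.01 and 8.68 in WT tumours (1416755_at). Here the lowest and the highest of all 6 values were both from Alb/AEG-1 tumours. The difference was -0.07 ± 0.27 (SE), and the second probe set (1416756_at) gave 0.06 ± 0.27. Bag3, which links HSP70 to autophagy through small heat shock proteins, was at 9.31, 9.03 and 8.98 in Alb/AEG-1 tumours, against 9.05, 8.17 and 9.41 in WT tumours. The WT group held both extremes. The difference was 0.23 ± 0.29 (SE, limma adjusted p = 0.816), and it was -0.12 without WT replicate 2, which carried the low value, and 0.50 without WT replicate 3.

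Hsp90aa1 encodes the stress-responsive cytosolic HSP90 alpha. Its brightest probe set (1438902_a_at) was at 11.25, 10.92 and 11.24 in Alb/AEG-1 tumours, against 11.26, 11.01 and 11.66 in WT tumours. WT replicate 3 stood above the rest, and the other 5 arrays lay close together. The difference was -0.17 ± 0.17 (SE), a ratio of 0.886 with a 95% interval of 0.669 to 1.17. The other probe sets differed by -0.22 (1426645_at) and -0.17 (1437497_a_at). All 3 had their highest value in WT replicate 3 and their lowest in Alb/AEG-1 replicate 2.

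The small heat shock protein Hspb1 (HSP25 in mouse), an ATP-independent holdase that also binds actin filaments, followed another order. Its brightest probe set (1422943_a_at) was at 8.28, 8.65 and 8.52 in Alb/AEG-1 tumours, against 8.81, 8.06 and 8.32 in WT tumours. The extremes were WT replicate 1 and WT replicate 2. The difference was 0.09 ± 0.19 (SE), and 1425964_x_at gave 0.14 ± 0.25 with the same highest and lowest arrays. Without WT replicate 1, the difference of 1425964_x_at was 0.42 (limma, unadjusted p = 0.048, adjusted p = 0.434).

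The mitochondrial chaperonin pair was the steadiest. Hspd1 (HSP60), the folding chamber, was at 11.72, 11.49 and 11.85 in Alb/AEG-1 tumours, against 11.78, 11.97 and 11.92 in WT tumours. A single Alb/AEG-1 value, that of replicate 3, exceeded a WT value. The difference was -0.20 ± 0.11 (SE), a ratio of 0.869 with a 95% interval of 0.724 to 1.04 (limma, unadjusted p = 0.112, adjusted p = 0.650). Without Alb/AEG-1 replicate 3 it was -0.28 (unadjusted p = 0.0435, adjusted p = 0.583). Hspe1 (HSP10), the lid of the chamber, was at 11.16, 11.30 and 11.44 in Alb/AEG-1 tumours, against 11.26, 11.39 and 11.39 in WT tumours (1450668_s_at, whose suffix marks probes shared by several transcripts). The difference was -0.05 ± 0.10 (SE), with a 95% interval of -0.28 to 0.18. The second probe set (1422579_at) gave -0.04, with an interval of -0.24 to 0.17. Ratios of Alb/AEG-1 to WT below 0.825 or above 1.14 lay outside the intervals of both probe sets.

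**Figure D2:**
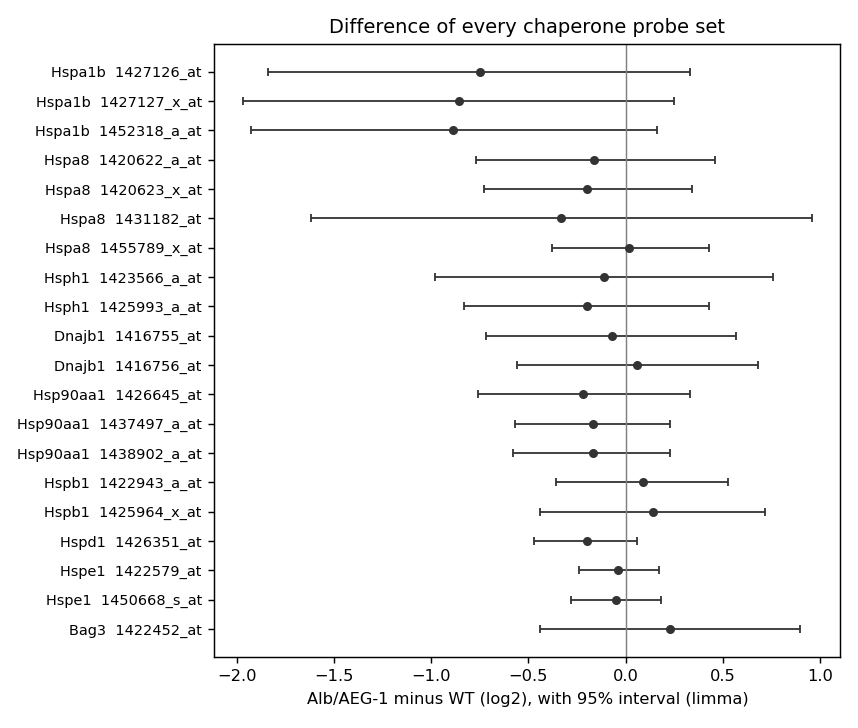
Difference between group means (Alb/AEG-1 minus WT, log2, horizontal axis) of all 20 chaperone probe sets, with bars for the 95% interval from limma. Every interval includes 0. The intervals of Hspe1 are the narrowest and those of Hspa1b and of Hspa8 probe set 1431182_at the widest.

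Most members instead varied between tumours of the same genotype. Among the 11313 probe sets brighter than the median of all (5.83), the median SD within groups was 0.14 and the median range over the 6 arrays was 0.38. Hspa1b (1452318_a_at) had an SD within groups of 0.74, larger than in 98.6% of these probe sets, and spanned 2.48, or 5.58-fold, from lowest to highest array. The SD was larger than in 95.7% of them for Hsph1 (0.44), in 95.8% for Dnajb1 (0.45) and in 96.4% for Bag3 (0.47). It was larger than in 86.9% for Hsp90aa1 (0.27), in 86.6% for Hspa8 (0.26) and in 89.7% for Hspb1 (0.30). Hspd1 (0.14, larger than in 53.6%) and Hspe1 (0.11, larger than in 35.1%) stood near the middle. These are descriptions of 6 arrays, each of 1 tumour, and repeat arrays of the same tumour were not analysed here.

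**Figure D3:**
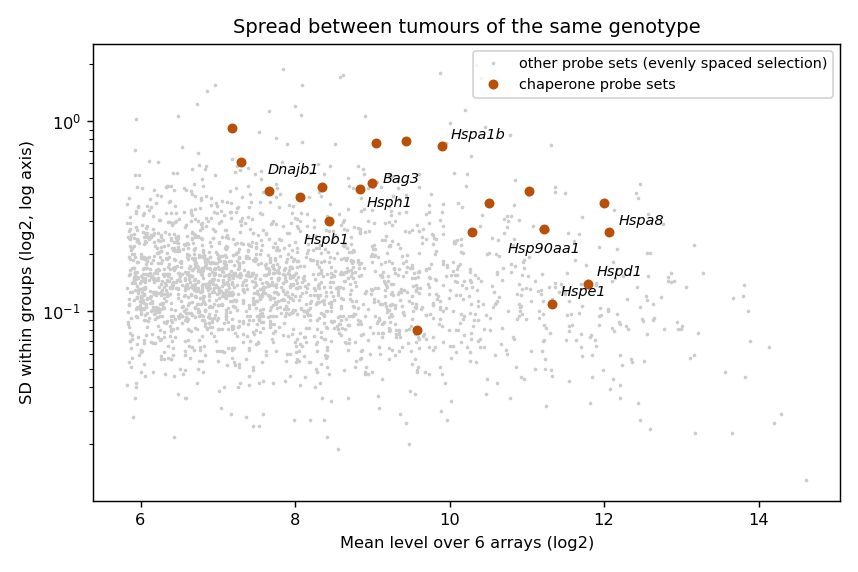
SD within groups (log2, logarithmic vertical axis) against mean level over 6 arrays (log2) for the 20 chaperone probe sets in orange and an evenly spaced selection of the other brighter probe sets in grey. Labels mark the brightest probe set of each gene. Hspa1b lies near the top of the cloud at 0.74, and Hspe1 lies within it at 0.11.

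The arrays at the extremes recurred from member to member. WT replicate 3 was the highest array in 12 of 20 member probe sets, and in 13.9% of the brighter probe sets. Alb/AEG-1 replicate 2 was the lowest in 14 of 20, and in 18.5% of the brighter ones. Probe sets of 1 gene share their transcript, and this order was described after the values were seen, so no test is given. Counted by gene with the brightest probe set, WT replicate 3 was highest in 5 of 9 members and Alb/AEG-1 replicate 2 lowest in 5 of 9, against 17.7% and 15.5% of all genes. The mean over the 9 genes was 10.11, 9.79 and 10.20 in Alb/AEG-1 tumours, against 10.14, 9.88 and 10.50 in WT tumours. The genes were not scaled, so Hspa1b, with the widest range, weighs most in the pattern of this mean. The order thus ran across genotype, with a low and a high array in each group. Centred on its own mean, Hspa1b was at -1.14 in Alb/AEG-1 replicate 2 and 1.34 in WT replicate 3. Hsph1 was at -0.55 and 0.65 on the same arrays, and Hspd1 at -0.29 and 0.13.

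**Figure D4:**
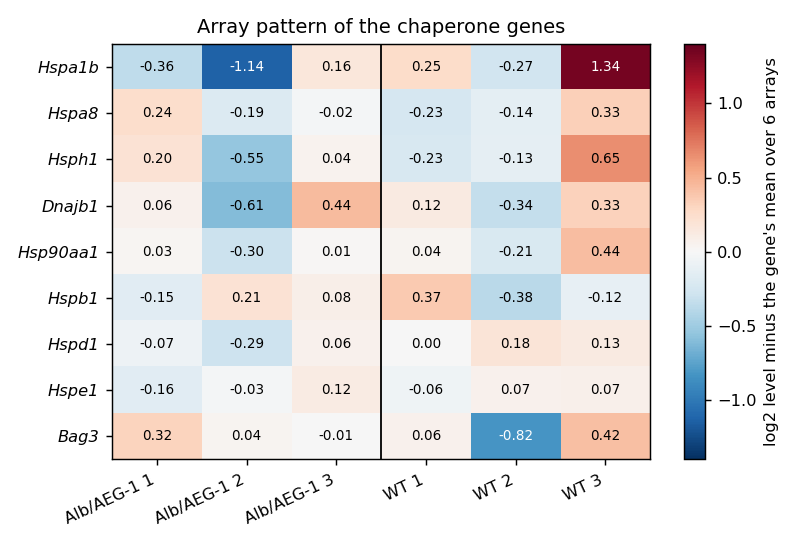
Log2 level of each chaperone gene minus its mean over the 6 arrays (colour and number), with Alb/AEG-1 replicates 1 to 3 in the left columns and WT replicates 1 to 3 in the right columns. Alb/AEG-1 replicate 2 is blue for Hspa1b (-1.14), Hsph1 and Dnajb1, and WT replicate 3 is red for Hspa1b (1.34) and Hsph1. Hspb1 and Bag3 have their lowest value in WT replicate 2.

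Several values that could move with this order were read on the same arrays. The gap between the 3′ and 5′ control probe sets, which widens as RNA degrades, was for beta-actin 1.22, 1.22 and 1.10 in Alb/AEG-1 tumours, against 1.20, 1.28 and 1.25 in WT tumours. For Gapdh it was -0.06, -0.06 and -0.20 in Alb/AEG-1 tumours, against -0.18, -0.07 and -0.13 in WT tumours. Alb/AEG-1 replicate 2 shared the highest Gapdh gap with Alb/AEG-1 replicate 1, and WT replicate 3 was at neither end of either gap. Hepatocyte markers (10 measured of 12 listed) averaged between 13.45 and 13.55 on all 6 arrays. Some lay near the highest value of any tested probe set (14.86), such as Alb at 14.59 to 14.64. How far such values can follow hepatocyte content is not known. The 13 macrophage and Kupffer cell markers all had positive differences, as did 5925 of all 12393 genes. At an unadjusted p under 0.05 there were 5 of them, beside 3.86% of all genes, and 0 at the adjusted threshold. They averaged 7.35, 7.67 and 7.93 in Alb/AEG-1 tumours, against 7.41, 6.97 and 7.09 in WT tumours. T and NK cell markers averaged 4.62 to 4.84 in Alb/AEG-1 tumours and 4.75 to 4.89 in WT tumours, and B cell markers 4.45 to 4.75 in Alb/AEG-1 tumours and 4.52 to 4.62 in WT tumours. Stellate cell and fibroblast markers averaged 6.92, 6.86 and 7.04 in Alb/AEG-1 tumours, against 7.0, 6.75 and 7.01 in WT tumours. Like the members, they were lowest in replicate 2 of each group. So were the averages of the hepatocyte markers (13.46 in Alb/AEG-1, 13.45 in WT) and of the erythroid markers (6.37 and 6.19). The averages of the endothelial markers were 6.53 to 6.59 in Alb/AEG-1 tumours and 6.47 to 6.63 in WT tumours. Those of the neutrophil markers were 4.5 to 5.02 in Alb/AEG-1 tumours and 4.29 to 4.97 in WT tumours. Cholangiocyte markers ranged from 4.79 to 5.11 in Alb/AEG-1 tumours and from 4.78 to 4.92 in WT tumours, and the 2 erythroid markers measured from 6.37 to 6.47 in Alb/AEG-1 tumours and from 6.19 to 6.51 in WT tumours. Averages of the T and NK cell, B cell, neutrophil and cholangiocyte markers all lay under the median of all probe sets (5.83). The part of the control and marker values in the order of the chaperones was not tested.

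Animal numbers form a lower range (Alb/AEG-1 replicates 1 and 2 and WT replicate 1) and a higher range (Alb/AEG-1 replicate 3 and WT replicates 2 and 3). The labels do not call these batches. Hspa1b (1452318_a_at) had a difference of -1.0 among lower numbers and -0.38 among higher numbers. For Dnajb1 (1416755_at) the difference was -0.40 among lower and 0.44 among higher numbers, and for Hspd1 it was -0.18 and -0.09. Over the 20 probe sets, 8 were negative in both ranges, 1 was positive in both, 3 were positive in the lower and negative in the higher range, and 8 were the reverse. Each within-range value rests on 3 arrays.

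Genes outside the set with the most similar pattern were found by Pearson's r over the 6 arrays, among 2903 genes with an SD of at least 0.2. The pattern compared was the unscaled mean of the 9 members, in which Hspa1b weighs most. The closest were Hsdl2, a peroxisomal dehydrogenase-like protein (r = 0.966), Pdzrn3, an E3 ubiquitin ligase (0.958), Glrx, a glutaredoxin (0.954), Hspa1a (0.953) and Zfp654, a zinc finger gene (0.949). Of the 2903 genes 15 (0.517%) exceeded 0.9. Hsdl2 was at 8.97, 8.71 and 9.0 in Alb/AEG-1 tumours, against 9.09, 8.69 and 9.31 in WT tumours. Like the members' mean, it was highest in WT replicate 3, and its low arrays were Alb/AEG-1 replicate 2 and WT replicate 2. No p is given, because the genes were picked for their likeness.

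The wider chaperone system was described with 7 lists of chaperones and co-chaperones outside the members. Of 88 listed genes 78 had a probe set, and 0 passed the adjusted threshold. At an unadjusted p under 0.05, 1 had a positive and 2 had a negative difference, beside 3.86% and 4.47% of all genes. The differences were positive for 36 and negative for 42, with a median of -0.02. WT replicate 3 was the highest array in 29.5% of them and Alb/AEG-1 replicate 2 the lowest in 39.7%.

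Within the HSP70 and HSP110 family 2 of 8 measured genes were positive, with a median of -0.06. Hspa4, an HSP110-type exchange factor, was at 9.49, 9.37 and 9.20 in Alb/AEG-1 tumours, against 9.18, 9.10 and 9.18 in WT tumours. The nearest values were 9.20 in an Alb/AEG-1 tumour and 9.18 in WT tumours, and the difference was 0.20 ± 0.10 (SE, limma adjusted p = 0.631). Hspa2, the testis-enriched HSP70, and Hspa4l differed by -0.38 ± 0.26 and -0.23 ± 0.19, both with WT replicate 3 highest and Alb/AEG-1 replicate 2 lowest.

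J-domain co-chaperones were positive in 4 of 14, with a median of -0.07. Dnaja3, the mitochondrial J-domain protein, was at 9.08, 9.02 and 9.12 in Alb/AEG-1 tumours, against 9.29, 9.25 and 9.26 in WT tumours. It was lower on every Alb/AEG-1 array, by -0.19 ± 0.08 (SE, limma unadjusted p = 0.0386, adjusted p = 0.614), while its 2 dimmer probe sets differed by -0.11 and -0.08 with overlapping groups. Dnajc2, a ribosome-associated J-domain protein, differed by 0.19 ± 0.08, Dnajb4 by -0.20 ± 0.17 and Dnaja2 by -0.15 ± 0.12. BAG proteins and exchange factors were positive in 7 of 10, with a median of 0.03. The mitochondrial exchange factor Grpel2 differed by -0.15 ± 0.08, Grpel1 by -0.10 ± 0.10, the ubiquitin ligase Stub1 by 0.10 ± 0.08 and Bag4 by 0.10 ± 0.12.

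Among HSP90 co-chaperones 8 of 13 were positive, with a median of 0.05, and with the mean of all probe sets of each gene 4 of 13 were positive, with a median of -0.02. Rpap3, part of the R2TP complex that assembles RNA polymerases, was at 6.92, 6.83 and 6.64 in Alb/AEG-1 tumours, against 6.44, 6.56 and 5.84 in WT tumours. The groups did not overlap, and the difference was 0.52 ± 0.19 (SE, limma unadjusted p = 0.0267, adjusted p = 0.611). Stip1, which bridges HSP70 and HSP90, and Fkbp4, an immunophilin of steroid receptor complexes, differed by -0.12 ± 0.16 and -0.15 ± 0.15. Both had WT replicate 3 highest and Alb/AEG-1 replicate 2 lowest. Sugt1 differed by 0.13 ± 0.12.

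Small heat shock proteins other than Hspb1 were positive in 4 of 8, with a median of -0.01, and with probe sets averaged within genes in 2 of 8, with a median of -0.06. Hspb8, the partner of Bag3 in chaperone-assisted autophagy, was at 9.74, 9.53 and 9.81 in Alb/AEG-1 tumours, against 9.94, 9.82 and 10.15 in WT tumours. The nearest values, 9.81 in an Alb/AEG-1 tumour and 9.82 in a WT tumour, nearly met. The difference was -0.28 ± 0.12 (SE, limma unadjusted p = 0.0505, adjusted p = 0.618), and its other 2 probe sets, at -0.25 and -0.08, overlapped. Odf1, a sperm tail protein, was dim, at 4.44 in Alb/AEG-1 tumours and 4.66 in WT tumours, and differed by -0.23 ± 0.10 (limma unadjusted p = 0.0461, adjusted p = 0.616). Hspb11 differed by 0.18 ± 0.12 and the lens crystallin Cryaa by 0.05 ± 0.09.

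Mitochondrial chaperones and proteases were positive in 4 of 11, with a median of -0.08. Alb/AEG-1 replicate 2 was the lowest array in 9 of the 11 and WT replicate 3 the highest in 1. Clpb, a mitochondrial disaggregase, differed by -0.16 ± 0.11, Trap1, the mitochondrial HSP90, by -0.13 ± 0.09, the membrane insertase Oxa1l by -0.11 ± 0.10 and the protease subunit Clpp by 0.11 ± 0.11. The TRiC chaperonin and prefoldin, which fold actin and tubulin, were positive in 7 of 14, with a median of 0.01. Their 4 genes with the smallest p were Vbp1 (0.14 ± 0.08), Pfdn6 (-0.12 ± 0.10), Cct2 (0.12 ± 0.10) and Cct4 (0.07 ± 0.08). Most probe sets of Cct2 and Cct4 went the other way, with 1 of 3 positive for Cct2 and 1 of 6 for Cct4.

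**Figure D5:**
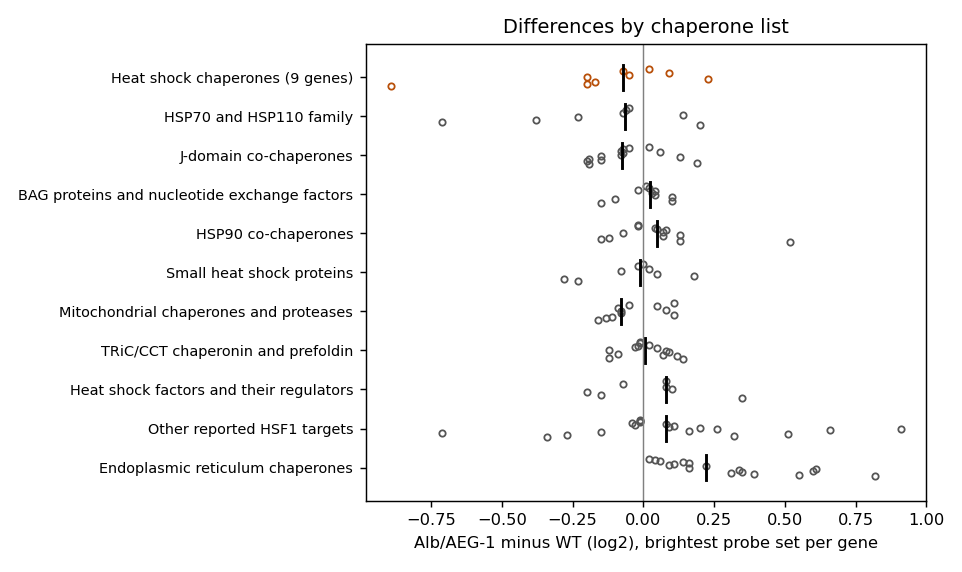
Difference between group means (Alb/AEG-1 minus WT, log2, horizontal axis) of the brightest probe set of each gene, by list, with circles for genes and a bar for the list's median. The 9 heat shock chaperones are orange, with Hspa1b at -0.89. Medians of the cytosolic and mitochondrial lists lie between -0.08 and 0.05, and all 17 endoplasmic reticulum chaperones lie to the right of 0.

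Regulators of the response and other HSF1 targets were read as well. Hsf1 itself was not analysed here, and Hsf4 was dim, at 3.74 in Alb/AEG-1 tumours and 3.90 in WT tumours. Of 7 heat shock factors and regulators measured, 4 were positive, with a median of 0.08. Xpo1, the nuclear export receptor, was at 7.82, 7.78 and 7.56 in Alb/AEG-1 tumours, against 7.46, 7.31 and 7.34 in WT tumours. This probe set (1418443_at) was higher on every Alb/AEG-1 array, by 0.35 ± 0.10 (SE, limma unadjusted p = 0.00886, adjusted p = 0.596), and 1418442_at by 0.31 ± 0.10. Another, dim probe set (1448070_at) went the other way with separate groups, at 3.21, 3.20 and 3.25 in Alb/AEG-1 tumours, against 3.48, 3.47 and 3.59 in WT tumours (-0.29 ± 0.08, unadjusted p = 0.00693, adjusted p = 0.596). Sirt1, a deacetylase of HSF1, differed by -0.20 ± 0.12 and Hsbp1, a small HSF1-binding protein, by 0.10 ± 0.09. Other reported HSF1 targets were positive in 10 of 19, with a median of 0.08. At an unadjusted p under 0.05, Ier5 differed by 0.32 ± 0.13 and Gadd45b, a stress-response gene, by -0.34 ± 0.14. Serpinh1, the collagen chaperone HSP47, differed by -0.27 ± 0.12 and Dnajb9, a J-domain protein of the endoplasmic reticulum, by 0.51 ± 0.26. Dnajb9 belongs to the compartment of the list described next, so these lists do not divide cleanly by stress response.

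Chaperones of the endoplasmic reticulum, which answer mainly to the unfolded protein response rather than HSF1, gave another picture. All 17 were positive, with a median of 0.22, beside 5925 of all 12393 genes. At an unadjusted p under 0.05 there were 3 of them, beside 3.86% of all genes, and 0 at the adjusted threshold. Pdia3, a disulphide isomerase for glycoproteins, was at 10.92, 11.06 and 10.54 in Alb/AEG-1 tumours, against 9.92, 10.14 and 9.99 in WT tumours. Its groups were clearly apart, by 0.82 ± 0.14 (SE, limma unadjusted p = 0.000551, adjusted p = 0.467). Pdia6 and Pdia4 differed by 0.55 ± 0.17 and 0.39 ± 0.16, with separate groups (adjusted p = 0.596 and 0.616 in limma). For Pdia4 the nearest values were 9.30 in an Alb/AEG-1 tumour and 9.29 in WT tumours. The dimmer probe sets of Pdia6 and Pdia4 differed by 0.24 and 0.09, with overlapping groups. Calr differed by 0.31 ± 0.16. The 17 genes averaged 10.82, 10.48 and 10.06 in Alb/AEG-1 tumours, against 10.19, 10.05 and 10.24 in WT tumours. Alb/AEG-1 replicate 1 had the highest average, while that of Alb/AEG-1 replicate 3 lay below WT replicates 1 and 3. The groups thus overlapped in this average, and the shared sign of the genes rests in part on single tumours. Hsp90b1, for instance, was at 12.27, 11.95 and 11.41 in Alb/AEG-1 tumours, against 11.79, 11.65 and 11.77 in WT tumours. Alb/AEG-1 replicate 2 was the lowest array, and WT replicate 3 the highest, in 0 of the 17. The difference between this list and the heat shock chaperones was not tested.

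Immediate early genes, which are induced rapidly by growth factors and stress, were read for the same arrays. They averaged 7.20, 6.36 and 7.47 in Alb/AEG-1 tumours, against 6.26, 7.07 and 6.36 in WT tumours. Alb/AEG-1 replicate 2 and WT replicate 3, at opposite ends for Hspa1b, had the same mean over this list, though single genes differed. Jun was at 6.53 in Alb/AEG-1 replicate 2 and 7.72 in WT replicate 3, and Egr1 was at 8.35 in Alb/AEG-1 replicate 2 and 7.19 in WT replicate 3. Of 18 genes 11 were positive, beside 5925 of all 12393 genes. At an unadjusted p under 0.05, 3 were positive and 1 was negative, beside 3.86% and 4.47% of all genes. At the adjusted threshold the count was 0. Egr1, a zinc finger factor, differed by 1.90 ± 0.65 and the growth-arrest gene Btg2 by 0.90 ± 0.32. The mRNA-decay factor Zfp36 differed by 0.87 ± 0.34 and the dim Klf4 by -0.25 ± 0.09. Adjusted p-values of these genes in limma were 0.602 to 0.611. The groups overlapped for Egr1, Btg2 and Zfp36, and were separate for Klf4, of whose 2 probe sets 1 was positive. Mtdh, the gene of AEG-1, was at 9.57, 9.40 and 9.15 in Alb/AEG-1 tumours, against 9.32, 9.03 and 9.16 in WT tumours (1455129_at, 0.20 ± 0.13, adjusted p = 0.677). Of its 6 probe sets, 4 were positive and 2 negative, at -0.01 and -0.09, and all 6 overlapped. Because the species of the transgene is not given, whether these mouse probe sets read its transcript is not known. The values therefore do not measure the level of the transgene.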

How the data were processed

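Trizol-extracted RNA (5 µg per tumour, per the labels' protocols) was hybridized as biotinylated cRNA to Affymetrix mouse arrays. The deposited values are log2 expression levels made by the authors with RMA, per the submitters' processing notes. RMA corrects background, quantile-normalizes arrays and summarizes probes, so a change common to most genes cannot be seen. Its version and a genome build for the probe sets are not given in the sources used here.

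Of 22690 probe sets, 64 control probe sets were left out. Gene names came from GEO's platform annotation, updated by gene ID through a RefSeq table (GRCm38.p6). Of the 22626 tested, 20380 had 1 symbol, 691 had several and 1555 had none. Genes with several probe sets were represented in lists by the brightest over 6 arrays, and all members' probe sets were kept. Each probe set was compared between genotypes in a linear model with moderated variance (limma 3.58.1, run under R 4.3.3). The tests were 2-sided on 7.53 degrees of freedom in total, p-values were adjusted by Benjamini-Hochberg across the 22626 probe sets, and the threshold was 0.05. The fit was checked on simulated data. Array pairs correlated with r between 0.987 and 0.993, and array medians differed by at most 0.0289. Replicates were numbered in accession order within the genotype labels. Promoter windows came from a RefSeq table, and figures were made in Python 3.11.15 (matplotlib 3.10.9).

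Genes named are all members, Hsf1, Hspa1a, Mtdh, the 4 genes of each chaperone list with the smallest unadjusted p, and the 5 genes most like the members. The members and lists were chosen with earlier results of these data known. As alternatives the variance moderation (intensity trend, robust), the normalization (quantile, median centring) and the filter (no dim or no cross-binding probe sets) were changed. Arrays were weighted or left out singly, a term was added for the range of animal numbers, and probe sets of a gene were averaged.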

Additional observations from a re-analysis of the deposited data

How the results depend on the processing

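With either other variance moderation, either other normalization, either filter, weighted arrays, a term for the range of animal numbers or any 1 array left out, 0 of the members' probe sets passed an adjusted p of 0.05. The count at an unadjusted p under 0.05 was 0 to 3 when each replicate was left out. Directions of small differences did not hold, and the causes were not tested. With a term for the range of animal numbers, Hspa8 (1431182_at) was at 0.004, Hsph1 (1423566_a_at) at 0.04, Dnajb1 (1416755_at) at 0.02, Hspb1 (1422943_a_at) at -0.01 and Hspe1 (1450668_s_at) at 0.01. With array weights, Hspa8 (1455789_x_at) was at -0.01 and Dnajb1 (1416756_at) at -8e-04. Leaving out each replicate gave Hspa8 -0.33 to 0.10 (1420622_a_at), -0.35 to 0.03 (1420623_x_at), -0.93 to 0.36 (1431182_at) and -0.09 to 0.20 (1455789_x_at). It gave Hsph1 -0.33 to 0.27 (1423566_a_at) and -0.36 to 0.08 (1425993_a_at), and Dnajb1 -0.31 to 0.21 (1416755_at) and -0.16 to 0.32 (1416756_at). It gave Hsp90aa1 -0.32 to 1e-04 (1438902_a_at), Hspb1 -0.08 to 0.29 (1422943_a_at) and -0.11 to 0.42 (1425964_x_at), Hspe1 -0.12 to 0.02 (1450668_s_at) and Bag3 -0.12 to 0.50. The Hspa1b and Hspd1 probe sets stayed negative in all of these fits. So did Hsp90aa1 1426645_at and 1437497_a_at and Hspe1 1422579_at, though they were as small as -0.02, -0.03 and -0.01 in some. With probe sets averaged within genes, 4 of 13 HSP90 co-chaperones and 2 of 8 small heat shock proteins were positive. The planned log transform was not run, since the deposited scale is log2. No paired analysis was possible because the labels give no replicate numbers shared between the groups. Signal over background limits Hsf4, Odf1 and Klf4, which were dim. Both group means of Hspa2 and Cryaa, and the Alb/AEG-1 means of Hspa1a and Gadd45b, also lay under the median of all probe sets (5.83).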
